A study of Mus musculus with 18 samples.

Results

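The genes described here are 10 ligands and receptors that maintain microglia, 6 of them ligands (Cx3cl1, Il34, Csf1, Tgfb1, Tgfb2 and Cd200) and 4 of them receptors (Cx3cr1, Csf1r, Tgfbr1 and Tgfbr2). They were chosen by name, with no measured value in the rule, but with earlier results of these data known. All 10 were found among the 30905 genes of the count matrices. Their counts were summed per library over sender cells (neurons, astrocytes and other types) and over microglia, the receiver, with cell types set by marker genes.

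The libraries came from 9 Kun Ming mice, an outbred laboratory stock, with 3 mice in each of 3 groups, and each mouse gave the hippocampus (Hip) and the prefrontal cortex (PFC), so that there were 18 single-nucleus RNA libraries. Specific pathogen-free (SPF) mice carried a gut microbiota free of listed pathogens, germ-free (GF) mice carried none, and colonized germ-free (CGF) mice were GF mice that lived with an SPF mouse in an isolator for the weeks before sampling. All mice were 8 weeks old. SPF mice were housed apart from GF and CGF mice, so housing and microbiota cannot be told apart between SPF and the other groups. GF and CGF mice were drawn at random from the same germ-free mice. Their shared origin and early germ-free life cannot be told apart from other differences to SPF mice either.

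Microglia are the resident macrophages of the brain, and their survival depends on signalling through the receptor tyrosine kinase CSF1R. This receptor has a pair of ligands, of which IL-34 is made mostly by neurons and CSF1 mostly by glia. TGF-beta, bound by TGFBR1 and TGFBR2 together, keeps microglia in their mature homeostatic state. Fractalkine (CX3CL1) is a membrane-bound chemokine of neurons that is cut free by proteases and is read by CX3CR1 on microglia, and CD200 on neurons and vessels holds microglia quiet through its receptor.

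Cx3cl1 lies on chromosome 8 (94772009 to 94782427, plus strand; all positions are GRCm38), Il34 on chromosome 8 (110741829 to 110805924, minus), Csf1 on chromosome 3 (107741048 to 107760469, minus) and Cd200 on chromosome 16 (45382135 to 45409053, minus). Tgfb1 lies on chromosome 7 (25687002 to 25705077, plus), Tgfb2 on chromosome 1 (186622792 to 186705989, minus), Tgfbr1 on chromosome 4 (47353222 to 47414931, plus) and Tgfbr2 on chromosome 9 (116084293 to 116175360, minus). Cx3cr1 also lies on chromosome 9 (119901616 to 120069879, minus), and this span overlaps Gorasp1, Csrnp1 and Xirp1 on the same strand, so it is uncertain how reads that these genes share were counted. Antisense genes overlap Il34 (Gm15894 and Gm15895) and Tgfb2 (Gm29491).

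The promoters of the fractalkine pair and of Tgfbr2 are shown because Cx3cl1 and Cx3cr1 moved in opposite directions in PFC and Tgfbr2 gave the largest difference of the 10 genes. Each is a window of 300 bases around the gene start in RefSeq (GRCm38.p6), written 5′ to 3′ on the strand of the gene. RefSeq starts Cx3cr1 inside the span given above, so its window does not hold the outer end of that span. Capitals mark GAGGAA or its reverse complement TTCCTC, the core letters bound by PU.1, the myeloid factor encoded by Spi1. These letters, on either strand, were present in 9289 of 32851 RefSeq promoters of the same length (28.3%).
Cx3cl1, chr8:94771930-94772229, plus strand: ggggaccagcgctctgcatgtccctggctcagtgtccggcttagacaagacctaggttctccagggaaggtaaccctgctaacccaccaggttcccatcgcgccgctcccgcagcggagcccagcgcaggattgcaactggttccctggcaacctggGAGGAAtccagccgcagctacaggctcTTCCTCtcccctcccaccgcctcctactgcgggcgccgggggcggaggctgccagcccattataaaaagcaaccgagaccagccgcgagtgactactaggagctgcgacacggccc
Cx3cr1, chr9:120068247-120068546, minus strand: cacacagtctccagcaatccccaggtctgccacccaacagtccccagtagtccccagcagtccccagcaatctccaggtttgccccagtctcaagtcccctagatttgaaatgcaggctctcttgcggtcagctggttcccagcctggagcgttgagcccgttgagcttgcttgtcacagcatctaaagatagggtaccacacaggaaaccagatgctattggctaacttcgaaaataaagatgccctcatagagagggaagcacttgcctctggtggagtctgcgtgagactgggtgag
Tgfbr2, chr9:116175314-116175613, minus strand: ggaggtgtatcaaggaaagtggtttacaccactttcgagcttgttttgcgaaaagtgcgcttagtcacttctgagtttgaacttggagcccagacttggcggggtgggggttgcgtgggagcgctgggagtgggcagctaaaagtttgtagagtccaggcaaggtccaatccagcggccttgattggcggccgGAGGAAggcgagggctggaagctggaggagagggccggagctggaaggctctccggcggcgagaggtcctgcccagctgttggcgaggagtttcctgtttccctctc

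The Cx3cl1 window held 2 matches, the Tgfbr2 window 1 and the Cx3cr1 window 0. A match describes letters only, and the window without a match says nothing about the factor.

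In Hip, 71398 nuclei were kept, of which 39825 were excitatory neurons and 2086 were microglia, and in PFC 66602 nuclei were kept, of which 38972 were excitatory neurons and 2072 were microglia. A library held 49067853 to 63217083 UMIs (counts of unique molecules) in Hip, and in PFC 59126586 to 71463928 in GF mice against 20336250 to 26949210 in SPF mice and 22213863 to 26151503 in CGF mice. The median depth of a microglial nucleus in PFC was 1482.5 to 1668 UMIs in GF libraries and 642 to 675 in SPF libraries, so depth and the GF group cannot be told apart there. Excitatory neurons had 9119.5 to 9791 UMIs in GF and 3868.5 to 4111 in SPF libraries of PFC, but 6031.5 to 6748.5 and 8617 to 9526 in Hip. The mitochondrial share of a library was 0.645 to 1.10% in GF and 0.128 to 0.471% in SPF mice in Hip. In PFC it was 0.359 to 0.594% and 1.66 to 3.22%. Depth in these neurons and this share cannot be told apart from the GF group in either region. An alternative thinned each library to the lowest mean UMIs per nucleus of its region, which matches that mean only. Clusters also split by group: clusters made mostly of GF nuclei held 98.1% of GF microglia, 99.7% of GF excitatory neurons and 99.5% of GF oligodendrocytes in PFC, and 75.3% of GF excitatory neurons, 85.5% of GF astrocytes and 86.4% of GF oligodendrocytes in Hip. In Hip microglia the clusters did not split (2.49%), but a second clustering of these nuclei did split by group. There a subcluster of 624 nuclei was 100% GF, where Hip held 642 GF microglia in all, and the other microglial subclusters were 0.209 to 3.14% GF. All 9 microglial markers were detected in the microglial sums, and libraries shared 6 to 29 cell barcodes, at most 0.362% of the smaller library. The microglial sums also held the excitatory marker list at 1425 to 2790 UMIs per 1e6 UMIs of the sum (CPM), against 2831 to 5030 CPM in the excitatory neurons themselves, and the source of these counts was not tested.

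All 6 ligands were found in sender cells, and each had its own distribution over cell types (the plot of mean levels by cell type). A level below is the mean ± SD in CPM over 9 mice (n = 9) unless another n is given. The 3′ counts are not adjusted for gene length, so levels were compared between cell types and not between genes.

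**Figure D1:**
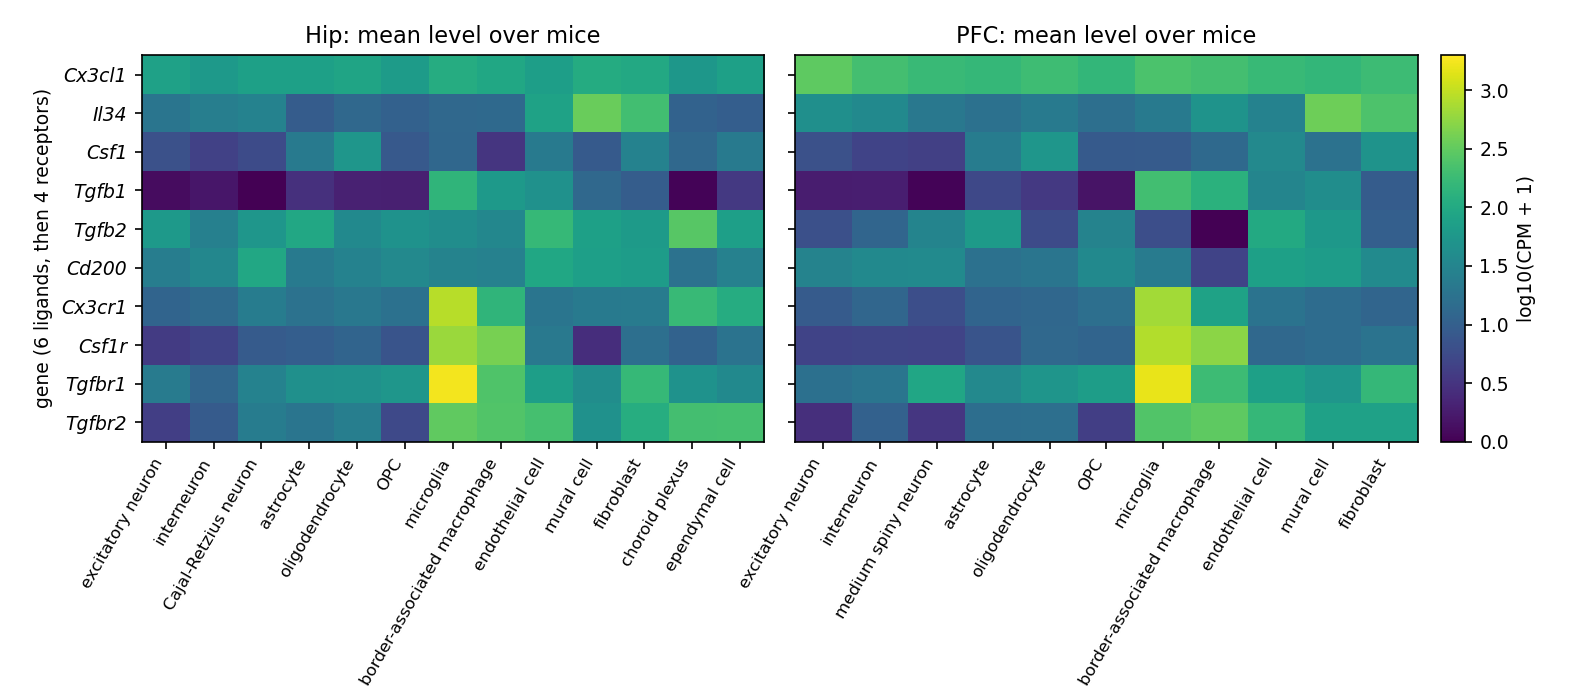
Mean level of each of the 10 genes in each cell type of Hip and PFC, in CPM on a log colour scale. Cx3cr1, Csf1r, Tgfbr1 and Tgfb1 were highest in microglia in both regions, while the level of Cx3cl1 was spread over all types.

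Cx3cl1 was spread over all cell types. In PFC its level was 304 ± 155 CPM in excitatory neurons, 233 ± 104 in microglia, 206 ± 95.1 in interneurons, 189 ± 86.8 in oligodendrocytes and 156 ± 75.5 in astrocytes, with SDs that overlap between neighbours in this order. Excitatory neurons held 81.2% of its UMIs in PFC and 72.1% in Hip. In Hip the level was 109 ± 36.5 CPM in microglia, 84.6 ± 19.9 in oligodendrocytes, 75.4 ± 25.6 in excitatory neurons and 75.1 ± 17 in astrocytes. This order differed between groups: in GF mice the mean was 109 CPM in excitatory neurons, 84.6 in microglia and 62.9 in oligodendrocytes, and in SPF mice it was 62.8, 134 and 101 CPM. The part that free neuronal RNA has in the glial values was not tested.

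Il34, the neuronal ligand of CSF1R, was 17.9 ± 5.25 CPM in Hip excitatory neurons and 43.2 ± 5.13 CPM in PFC excitatory neurons, which held 64.3% and 75.2% of its UMIs. Its level was higher in mural cells of the vessel wall, at 352 ± 165 CPM in Hip and 370 ± 106 CPM in PFC, and in fibroblasts, at 199 ± 75.5 and 235 ± 76.5 CPM. Among hippocampal neurons it was high in CA3 neurons and low in granule neurons of the dentate gyrus.

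Csf1, the other CSF1R ligand, was highest in oligodendrocytes in Hip, at 53.8 ± 6.38 CPM. In PFC oligodendrocytes had 52.7 ± 12.0 CPM and fibroblasts 47.9 ± 23.9 CPM, which overlapped, and fibroblasts had the higher mean in nuclei passing a stricter marker gate (64.5 against 59.0 CPM) and in CGF mice (68.0 against 57.7 CPM). Astrocytes had 21.8 ± 3.77 and 23.5 ± 6.02 CPM. Excitatory neurons had 5.64 CPM in Hip and 5.55 CPM in PFC, although their number gave them 48.6% and 55.3% of the UMIs of this gene.

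Tgfb1 was highest in microglia, at 144 ± 27.0 CPM in Hip and 197 ± 65.6 CPM in PFC, and they held 48.9% and 42.5% of its UMIs. Border-associated macrophages, the macrophages of meninges and perivascular spaces, had 60.0 ± 53.5 and 126 ± 153 CPM, and endothelial cells 46.1 ± 12.6 and 30.5 ± 12.2 CPM. Among GF mice of PFC the mean was 187 CPM in border-associated macrophages, from 13 UMIs, and 172 CPM in microglia, from 265 UMIs. In nuclei passing the stricter marker gate these means were 116 and 177 CPM, the reverse order. Among cell types, with neuron subtypes left out, Tgfb2 was instead highest in choroid plexus cells of Hip (279 ± 44.5 CPM, n = 7) and in endothelial cells (163 ± 64.6 CPM in Hip and 101 ± 62.9 CPM in PFC), followed by astrocytes (92.8 ± 19.5 and 62.3 ± 18.3 CPM). Excitatory neurons of Hip had 59.5 ± 10.1 CPM of Tgfb2, and those of PFC had 5.43 ± 0.603 CPM. Cd200 was highest in Cajal-Retzius neurons (92.9 ± 46.0 CPM) and endothelial cells (91.0 ± 31.8 CPM in Hip, 74.2 ± 20.9 CPM in PFC), with 23.8 ± 2.63 and 28.8 ± 2.01 CPM in excitatory neurons.

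All 4 receptors were highest in microglia in Hip, and 3 of them in PFC. Cx3cr1 had 872 ± 205 CPM in Hip and 698 ± 353 CPM in PFC microglia, Csf1r 631 ± 60.5 and 821 ± 181 CPM, Tgfbr1 1731 ± 170 and 1556 ± 389 CPM, and Tgfbr2 307 ± 67.4 and 254 ± 55.2 CPM. Border-associated macrophages followed for Csf1r, at 424 ± 173 CPM in Hip and 533 ± 365 CPM in PFC. Tgfbr2 was the receptor shared most widely, with 208 ± 80.2 CPM in Hip and 156 ± 26.8 CPM in PFC endothelial cells. In border-associated macrophages of PFC its mean was above that of microglia, at 299.7 ± 167 CPM, from 29 UMIs in all and with values of 0 to 491 CPM.

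Excitatory neurons held 36.8% of all Cx3cr1 UMIs in Hip, but at a level of 1.26% of that in microglia. The 9 microglial markers had a median of 1.06% by the same measure and ranged from 0.0817 to 4.79%. The part of microglial RNA in the neuronal Cx3cr1 level was not tested. In choroid plexus cells Cx3cr1 was at 20.4% of the microglial level, against a median of 2.20% for the markers, and in ependymal cells at 12.7% against 1.81% (n = 7 libraries for each).

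Over 41 cell types and neuron subtypes of both regions, the genes whose mean levels followed each member most closely were ranked by Pearson's r among 13458 genes. These r values describe types that share libraries and marker gates, and carry no test. The nearest to Csf1r were Ly86 and Ikzf1 (r = 0.980 for both), a near one to Cx3cr1 was 2310008N11Rik (0.931), those to Tgfb1 were Serinc3 (0.962) and Slco2b1 (0.961), those to Tgfbr1 were Unc93b1 (0.892) and Dock8 (0.882), and those to Tgfbr2 were Larp4b (0.910) and Ctsh (0.908). For the ligands the nearest were Supt5 (0.944) and Ccl27a (0.941) for Cx3cl1, C1qtnf7 (0.819) and Egflam (0.815) for Il34, Pla2g16 (0.843) and Baz2b (0.822) for Csf1, Slc16a4 (0.865) and Tead1 (0.842) for Tgfb2, and Spock2 (0.811) and 1500009L16Rik (0.803) for Cd200.

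Microglia of GF mice had more Cx3cr1 than microglia of SPF mice in both regions, while none of the other 3 receptors passed the test. In Hip the level was 1182, 1119 and 1028 CPM in GF mice 5, 6 and 7, against 676, 839 and 561 CPM in SPF mice 30, 31 and 32 and 880, 806 and 760 CPM in CGF mice 17, 18 and 19. In PFC it was 1206, 1209 and 1078 CPM in GF mice, 433, 450 and 431 CPM in SPF mice and 509, 446 and 516 CPM in CGF mice. Every GF value lay above every SPF and CGF value of its region, and CGF and SPF values overlapped.

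**Figure D2:**
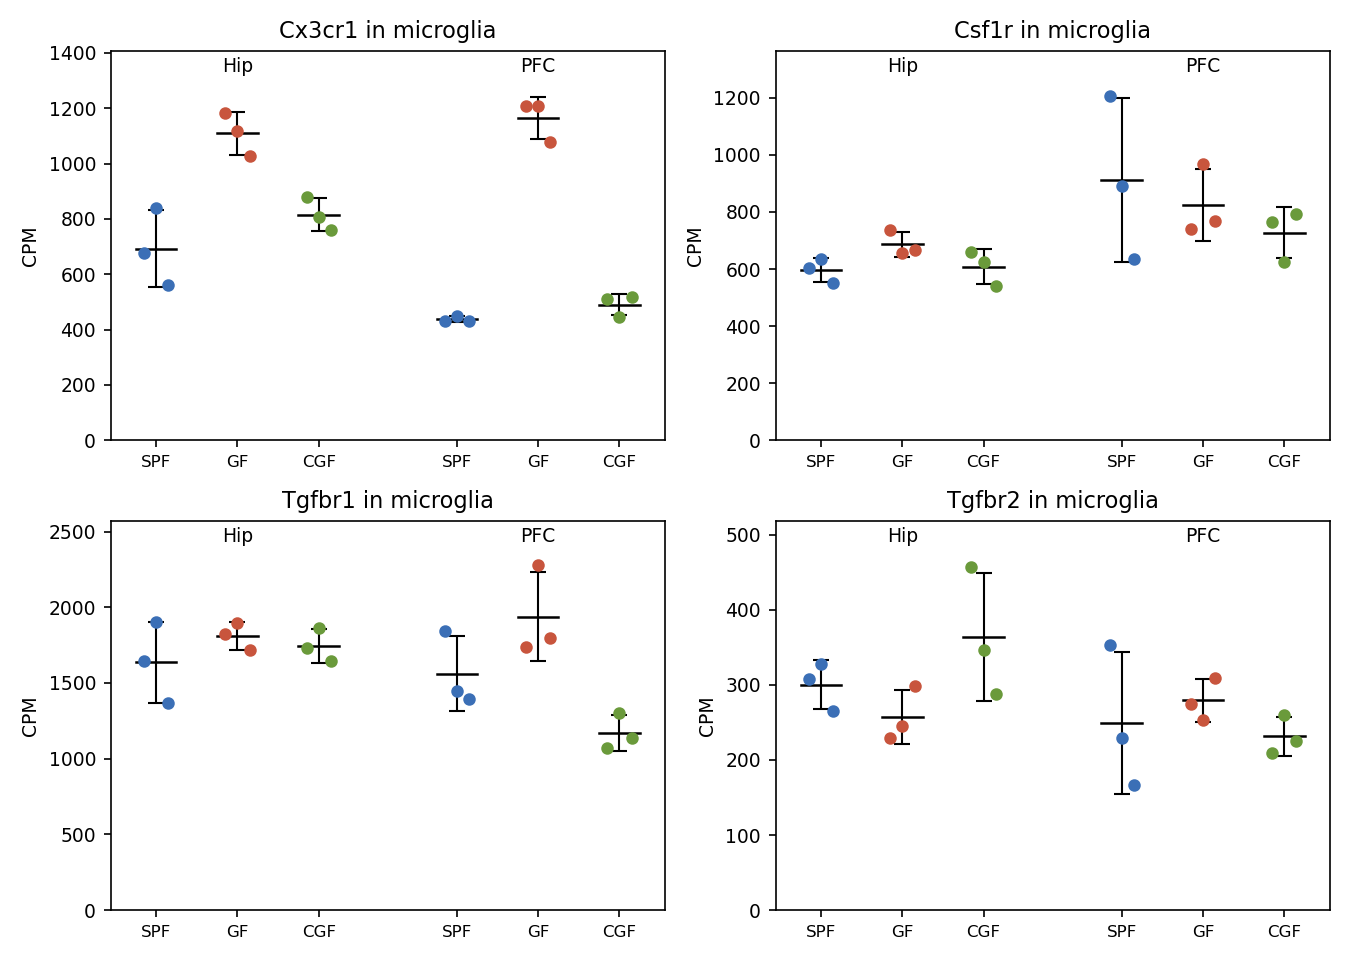
Levels of the 4 receptors in microglia by mouse, in CPM (points are mice, the line is the mean, bars are the SD, n = 3; blue SPF, red GF, green CGF). Cx3cr1 in GF mice sits between 1028 and 1209 CPM in both regions, above all SPF and CGF mice.

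The log2 fold change of Cx3cr1 between GF and SPF microglia was 0.71 in Hip (SE 0.15, adjusted p = 0.00103) and 1.29 in PFC (SE 0.18, adjusted p = 1.88e-07), by edgeR's quasi-likelihood test with Benjamini-Hochberg adjustment over all genes tested, which is the test behind every adjusted p below. It was called, that is, under an adjusted p of 0.05, in every alternative and without each mouse in turn. Against CGF mice the change was 0.46 in Hip (adjusted p = 0.0268) and 1.10 in PFC (adjusted p = 3.87e-06). The call in Hip against CGF was lost without mouse 5, 6, 17, 18 or 19, in thinned libraries and with no filter on low counts. The difference of the GF against SPF change between regions was -0.58 (Hip minus PFC) and was not called (adjusted p = 0.097). The summed microglial marker list moved in the same direction, from 4174 to 5347 CPM in SPF to 6505 to 6747 CPM in GF mice in Hip and from 4029 to 4646 to 6675 to 8031 CPM in PFC, and its part in the rise of Cx3cr1 was not tested.

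Csf1r was 737, 656 and 667 CPM in GF, 605, 634 and 552 CPM in SPF and 660, 626 and 540 CPM in CGF microglia of Hip. In PFC the values were 739, 969 and 767 CPM in GF, 1207, 892 and 634 CPM in SPF and 763, 625 and 794 CPM in CGF mice. The GF values lay above the SPF values in Hip without passing the test (log2 fold change 0.23, adjusted p = 0.25) and overlapped them in PFC (-0.22, adjusted p = 0.377).

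Tgfbr1 was 1739, 2277 and 1797 CPM in GF, 1845, 1444 and 1394 CPM in SPF and 1073, 1299 and 1139 CPM in CGF microglia of PFC. All CGF values lay below all others, and the change from CGF to GF was called (log2 fold change 0.58, adjusted p = 0.0119), but not without mouse 6 or without mouse 17. In Hip the GF and SPF values overlapped, with means of 1811 and 1636 CPM. Tgfbr2 overlapped between GF and SPF microglia in both regions (log2 fold change -0.19 in Hip, adjusted p = 0.449, and 0.15 in PFC, adjusted p = 0.615).

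Of the 8 members tested in Hip microglia, 2 were called between GF and SPF mice, beside 26.8% of all 7837 genes tested. In PFC 2 of 6 members were called, beside 39.8% of 5448 genes. The other called members were ligands. Tgfb2 fell by 1.22 on the log2 scale in GF microglia of Hip (SE 0.39, adjusted p = 0.0238), at 22.4, 24.5 and 19.1 CPM in GF against 42.0, 47.2 and 68.1 CPM in SPF mice, from 7 to 37 UMIs a mouse. This call was lost with DESeq2, with the length and GC trend removed and in nuclei passing a stricter marker gate, and without mouse 5, 7 or 32. Some marker lists of other cell types fell together with Tgfb2 in the same microglial sums, with no overlap between the groups, and others did not. The astrocyte list, with all 9 markers detected in each mouse, was 2448 to 2549 CPM in GF and 3538 to 4556 CPM in SPF mice, and the endothelial list was 49.0 to 70.0 CPM (3 to 5 of 8 markers detected) and 84.1 to 109 CPM (6 to 8). The oligodendrocyte list was 384 to 526 CPM in GF and 834 to 1258 CPM in SPF mice, and the interneuron list 204 to 398 and 429 to 629 CPM. The choroid plexus list, whose cells have the highest Tgfb2, overlapped between the groups, at 36.4 to 8300 CPM in GF and 427 to 2529 CPM in SPF mice. The excitatory list overlapped as well and did not fall, at 2140 to 2588 CPM in GF and 1728 to 2417 CPM in SPF mice. The lists of oligodendrocyte precursors, mural cells and fibroblasts also overlapped. The part of these cells in the fall of Tgfb2 was not tested.

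Tgfb1, which microglia make themselves, was not called between GF and SPF microglia. Its values in PFC were 175, 184 and 157 CPM in GF, 342, 142 and 132 CPM in SPF and 175, 219 and 252 CPM in CGF mice, which overlap. In Hip they were 174, 169 and 183 CPM in GF, 153, 123 and 121 CPM in SPF and 141, 111 and 119 CPM in CGF mice. All GF values were the higher ones in Hip, with a log2 fold change of 0.42 against SPF (adjusted p = 0.0801).

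Between GF and CGF microglia, 3 members were called in Hip (beside 26.5% of all genes) and 3 in PFC (beside 36.3%). Those in Hip were Cx3cr1, Tgfb1 (log2 fold change 0.52, adjusted p = 0.0422) and Tgfbr2 (-0.47, adjusted p = 0.047). With the libraries thinned to the lowest mean depth or with no filter, none of the 3 was called. Tgfb1 lost its call without each of 8 of the 9 mice, all but mouse 32, and Tgfbr2 without mouse 5, 6, 17, 18 or 30. DESeq2 called neither of these. Those in PFC were Cx3cr1, Tgfbr1 and Cx3cl1 (-1.05, adjusted p = 0.000419). Between CGF and SPF microglia edgeR called 0 members in either region, with 0 members at an unadjusted p under 0.05 and 0 called by DESeq2, where the shares of all genes called were 0.115% in Hip and 0.0734% in PFC.

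Cx3cl1 differed between GF and SPF excitatory neurons in opposite directions in the 2 regions, higher in GF mice in Hip and lower in PFC. In Hip its level was 112.5, 100.1 and 113.1 CPM in GF mice, 63.1, 57.6 and 67.8 CPM in SPF mice and 51.6, 57.7 and 55.2 CPM in CGF mice. In PFC it was 153.7, 129 and 126.2 CPM in GF mice, 392.5, 513.7 and 465.7 CPM in SPF mice and 247.2, 454.5 and 252.4 CPM in CGF mice. No GF value overlapped any SPF or CGF value in either region, and CGF mouse 18 lay among the SPF mice in PFC while the other CGF mice lay below them.

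**Figure D3:**
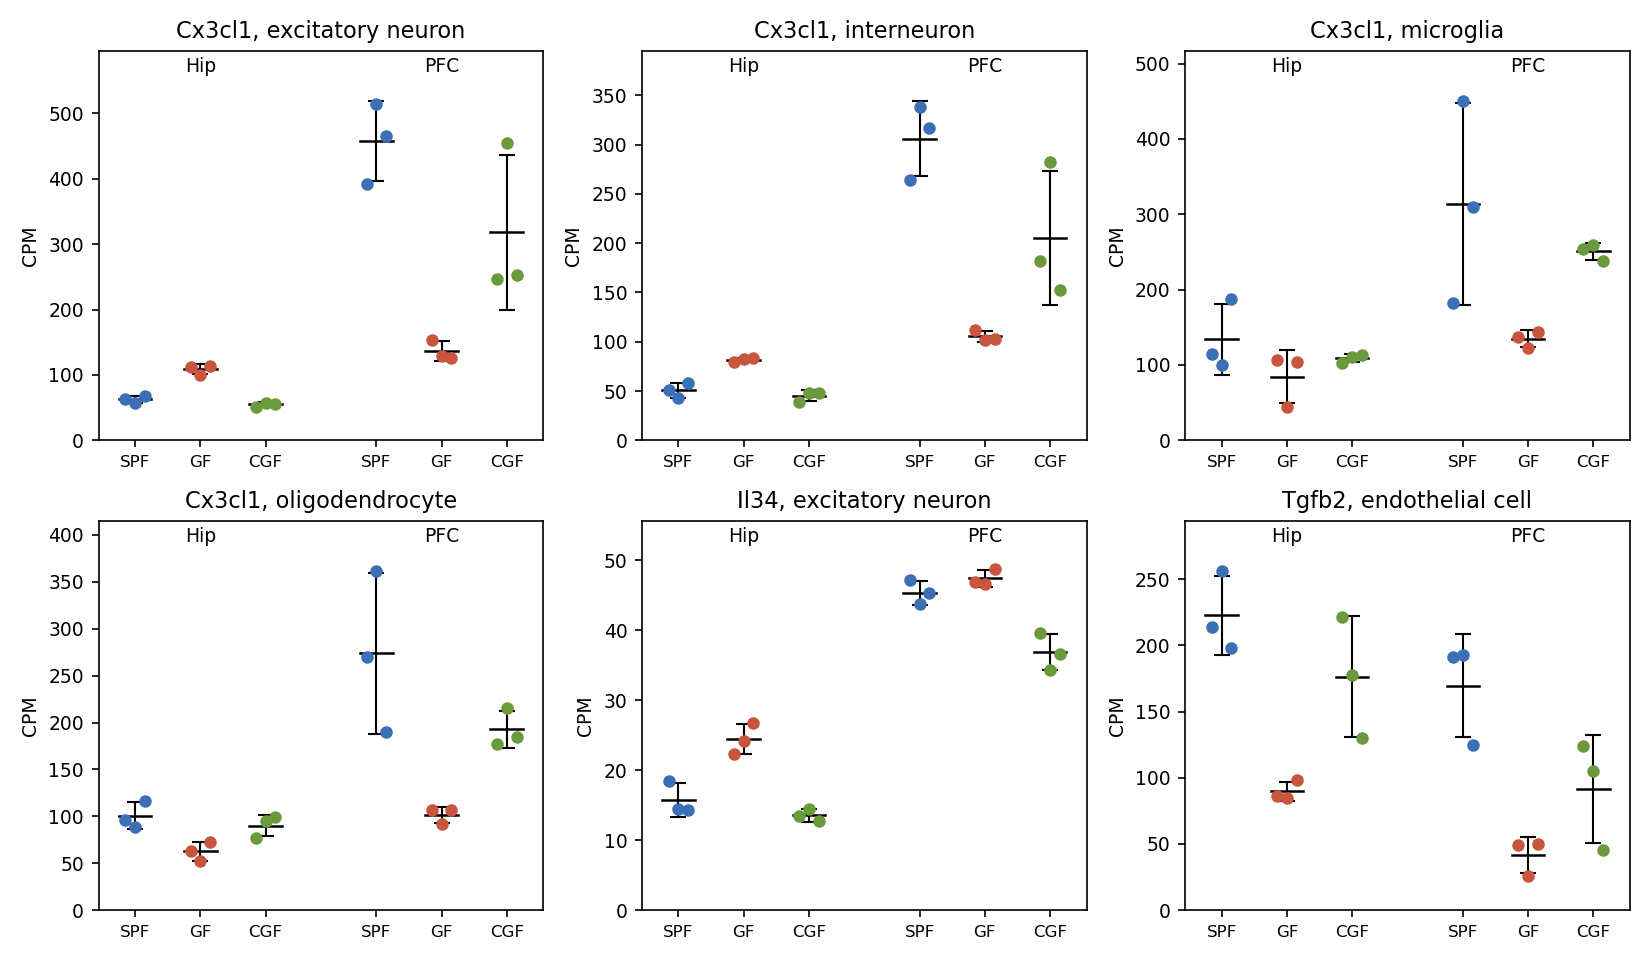
Levels of Cx3cl1 in excitatory neurons, interneurons, microglia and oligodendrocytes, of Il34 in excitatory neurons and of Tgfb2 in endothelial cells by mouse, in CPM (points are mice, the line is the mean, bars are the SD, n = 3; blue SPF, red GF, green CGF). Cx3cl1 in excitatory neurons of GF mice is above SPF in Hip (100.1 to 113.1 against 57.6 to 67.8 CPM) and below it in PFC (126.2 to 153.7 against 392.5 to 513.7 CPM).

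For Cx3cl1, GF against SPF gave a log2 fold change of 0.63 in Hip (SE 0.080, adjusted p = 0.00026) and -1.60 in PFC (SE 0.23, adjusted p = 7.94e-05). The difference between these changes, tested as an interaction over all 18 libraries, was 2.17 (SE 0.27, adjusted p = 3.19e-06). Against CGF the change was 0.78 in Hip (adjusted p = 7.93e-05) and -1.07 in PFC (adjusted p = 0.00151). These calls remained in the thinned libraries, and the alternatives gave 0.47 to 0.79 in Hip and -1.75 to -1.21 in PFC.

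The neuron subtypes are given here without a test, and GF and SPF values overlapped in none of them but the Lamp5 interneurons of Hip (ratio 1.11). The GF to SPF ratio of mean Cx3cl1 was 1.78 in CA1, 1.60 in CA3 and 1.55 in dentate granule neurons of Hip. In PFC it was 0.305 in upper-layer, 0.265 in mid-layer, 0.297 in layer 5 and 0.489 in layer 6b neurons. Layer 6b held 296 GF nuclei, 101 of them likely doublets, and 109 SPF nuclei, 10 of them likely doublets. Among interneurons the ratio in Hip was 1.85 in Sst, 1.65 in Pvalb and 1.53 in Vip cells, and in PFC it was 0.315 in Pvalb, 0.45 in Vip and 0.349 in Lamp5 cells. Sst cells of PFC were only 34 nuclei in GF mice, against 734 in SPF mice.

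Interneurons as a whole showed the same directions. Their Cx3cl1 was 79.3, 82.0 and 83.6 CPM in GF and 51.2, 43.0 and 58.1 CPM in SPF mice in Hip, and 111.8, 102 and 103 CPM against 263.7, 337.8 and 316.4 CPM in PFC. The changes were 0.54 in Hip (SE 0.12, adjusted p = 0.00507) and -1.47 in PFC (SE 0.20, adjusted p = 2.36e-05).

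In oligodendrocytes and astrocytes Cx3cl1 was lower in GF mice in both regions. Oligodendrocytes had 63.4, 52.5 and 72.9 CPM in GF and 95.8, 89.0 and 116.8 CPM in SPF mice of Hip, and 106.6, 91.9 and 106.6 CPM against 269.5, 362.1 and 190.2 CPM in PFC. The GF and SPF values did not overlap, and both changes were called (-0.64 in Hip, SE 0.16, adjusted p = 0.00581, and -1.37 in PFC, SE 0.20, adjusted p = 2.17e-06). Astrocytes changed by -0.49 in Hip (adjusted p = 0.0395, lost with DESeq2 and without mouse 6, 7, 18, 30 or 32) and by -1.23 in PFC (SE 0.21, adjusted p = 3.88e-05).

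The direction in PFC was the same in microglia, whose Cx3cl1 was 138, 122 and 144 CPM in GF, 182, 450 and 309 CPM in SPF and 254, 260 and 238 CPM in CGF mice, with all GF values lowest (log2 fold change -1.38 against SPF, SE 0.22, adjusted p = 2.51e-06). In microglia of Hip the values overlapped, at 106, 43.6 and 104 CPM in GF and 114, 100.5 and 188 CPM in SPF mice (-0.65, adjusted p = 0.0813). In PFC the change was called in oligodendrocyte precursor cells (OPC) as well (-1.38, SE 0.24, adjusted p = 7.64e-06). It was also called in PFC vascular cells (endothelial cells, mural cells and fibroblasts together; -0.84, SE 0.17, adjusted p = 0.000504), but not in vascular nuclei that pass the stricter gate, where it was -0.17. The excitatory marker list in PFC microglial sums was 2494 to 2790 CPM in GF and 1617 to 2667 CPM in SPF mice, and the part of neuronal RNA in the microglial Cx3cl1 values was not tested.

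Il34 in excitatory neurons of Hip was 22.4, 24.2 and 26.7 CPM in GF, 18.5, 14.4 and 14.3 CPM in SPF and 13.5, 14.4 and 12.7 CPM in CGF mice. All GF values lay above all others. The change against SPF was 0.47 (SE 0.12, adjusted p = 0.0101) and that against CGF 0.65 (adjusted p = 0.00181), and both calls were lost after correction of every library for GC content and gene length (0.04 and 0.15).

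The GF to SPF ratio of Il34, as a description, was 1.87 in CA3 neurons (63.9 ± 5.28 against 34.1 ± 2.50 CPM, n = 3) and 1.65 in CA1 neurons. In dentate granule neurons it was 1.13, with overlapping values. In PFC excitatory neurons Il34 was 46.9, 46.6 and 48.8 CPM in GF, 47.1, 43.7 and 45.3 CPM in SPF and 39.6, 34.4 and 36.6 CPM in CGF mice, where GF and SPF overlap and CGF is lowest. The change against CGF was called (0.54, adjusted p = 0.000137) in all alternatives, while that against SPF (0.21, adjusted p = 0.0403) was lost with library size alone as the scaling, in thinned libraries, without a filter on low counts and without any single GF or SPF mouse.

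Of 10 members tested in Hip excitatory neurons 5 were called between GF and SPF, 2 of them higher and 3 lower, beside 46.9% of 18541 genes. In PFC 4 of 10 were called, 2 higher and 2 lower, beside 63.0% of 17096 genes. The lower ones in Hip were Tgfb2 (-0.50, adjusted p = 0.0129), Csf1r (-0.91, adjusted p = 0.0149) and Tgfbr1 (-0.64, adjusted p = 0.0302). The calls of Tgfb2 and Tgfbr1 were lost with library size alone, with the length and GC trend removed and without mouse 31. That of Tgfbr1 was also lost with the stricter gate and without mouse 6 or 7, and that of Csf1r without mouse 6. Csf1r and Tgfbr1 were at 0.443% and 1.33% of their microglial level in these neurons. The microglial markers had a median of 1.06% there, with a range of 0.0817 to 4.79%. The part of microglial RNA in both was not tested. The marker list itself was higher in GF mice, at 61.7 to 73.7 CPM against 43.5 to 51.1 CPM in SPF mice. In PFC Cx3cr1 was higher in GF (0.73, SE 0.15, adjusted p = 0.00112), at 12.5, 9.65 and 9.41 CPM against 6.73, 6.92 and 7.36 CPM. Microglial markers in these neuronal sums were also higher in GF mice, at 54.0 to 59.3 CPM against 46.9 to 52.3 CPM in SPF mice, and their part in it was not tested. Csf1r was lower in GF (-0.64, adjusted p = 0.0348), at 2.29 to 2.71 CPM against 3.58 to 4.75 CPM, a call lost with the length and GC trend removed and without mouse 5, 6, 7, 30 or 31.

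Between GF and CGF excitatory neurons 3 members were called in Hip (beside 46.6% of all genes) and 4 in PFC (beside 62.5%). In Hip they were Cx3cl1, Il34 and Tgfb2 (-0.52, adjusted p = 0.0108, lost with library size alone and with the length and GC trend removed). In PFC they were Cx3cl1, Il34, Cx3cr1 (0.88, adjusted p = 0.000308) and Tgfbr1 (0.84, adjusted p = 0.00569). Over all PFC mice these neurons held both receptors at 1.27% and 1.01% of the microglial level. The 9 markers had a median of 0.839%, with a range of 0.159 to 2.18%. The microglial marker list in the same sums was 37.9 to 44.9 CPM in CGF and 54.0 to 59.3 CPM in GF mice, and its part in both changes was not tested. Between CGF and SPF edgeR called 0 members in either region, beside 0.734% of all genes in Hip and 0.333% in PFC. In Hip 1 member and in PFC 3 members had an unadjusted p under 0.05, and DESeq2 called 1 member in each region.

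In interneurons 1 of 9 members was called in Hip (beside 37.1% of genes) and 2 of 9 in PFC (beside 53.3%). The call beside Cx3cl1 was Cx3cr1 in PFC (0.52, adjusted p = 0.0395), which was lost in 5 of the alternatives, DESeq2 among them, and without mouse 5, 7, 31 or 32. These interneurons held Cx3cr1 at 1.87% of the microglial level. The microglial markers had a median of 0.964%, with a range of 0.191 to 2.39%. The part of microglial RNA in the change was not tested.

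Tgfb2, the TGF-beta of endothelium, astrocytes and hippocampal neurons, was lower in the pooled vascular cells of GF mice in both regions. In endothelial cells of Hip its level was 86.5, 84.6 and 98.0 CPM in GF, 214.1, 255.9 and 198.2 CPM in SPF and 221.4, 177.8 and 130 CPM in CGF mice. In PFC it was 49.1, 26.1 and 50.2 CPM in GF, 191.5, 192.5 and 125 CPM in SPF and 124, 105.2 and 45.7 CPM in CGF mice. GF values lay below all SPF values in both regions, and CGF mouse 19 lay among the GF mice in PFC.

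The test was made on all vascular cells together, where Tgfb2 changed by -1.08 in Hip (SE 0.15, adjusted p = 0.00131) and by -1.86 in PFC (SE 0.24, adjusted p = 1.89e-06), called under all alternatives. This pooled test does not show whether mural cells or fibroblasts changed apart from endothelial cells. Of 10 members tested in Hip vascular cells 2 were called, beside 14.7% of all genes, and in PFC 2 of 8, beside 39.1%. The other call in Hip was Tgfbr2 (-0.77, SE 0.23, adjusted p = 0.0379), at 72.5, 122.8 and 144 CPM in GF and 221.3, 261.8 and 152.4 CPM in SPF mice. It was lost without mouse 5, 6, 30 or 31 and in 4 alternatives.

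In astrocytes of Hip, Tgfb2 was 66.7, 89.0 and 68.9 CPM in GF, 103.3, 123.2 and 114.9 CPM in SPF and 90.2, 79.2 and 100 CPM in CGF mice. The GF values lay below the SPF values (-0.59, SE 0.14, adjusted p = 0.00564), a call lost with the length and GC trend removed. In all, 2 of 9 members were called in Hip astrocytes (beside 33.5% of genes) and 2 of 7 in PFC (beside 46.5%). The other call in PFC was Tgfbr2 (-0.89, adjusted p = 0.0379), which was lost in 5 alternatives and without mouse 5, 6, 7 or 32.

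Between GF and CGF astrocytes edgeR called 0 members in Hip (beside 35.0% of genes), with 3 members at an unadjusted p under 0.05 and 0 by DESeq2. In PFC 1 was called, Cx3cl1 (-0.63, adjusted p = 0.0151; lost without mouse 18 and with the length and GC trend removed), beside 47.8%. Between CGF and SPF astrocytes edgeR called 0 in Hip (beside 0.0549%) and 0 in PFC (beside 0.23%), with 1 and 2 members at an unadjusted p under 0.05 and 0 by DESeq2 in both.

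Tgfb2 was higher and Il34 lower in Hip than in PFC excitatory neurons of GF mice. Tgfb2, at 48.9 to 54.2 CPM in Hip and 4.89 to 6.46 CPM in PFC, differed by 3.08 on the log2 scale (adjusted p = 1.47e-10), and Il34 differed by -1.09 (adjusted p = 3.3e-07), both called in all alternatives. Cd200, the quieting signal, differed by -0.31 (adjusted p = 0.032) and Tgfbr2 by 0.72 (adjusted p = 0.0428). These were the 4 of 10 members called, beside 33.3% of all genes. Both of the last calls were lost in thinned libraries and without mouse 6, that of Cd200 also with library size alone and without mouse 5, and that of Tgfbr2 also without mouse 7 or 31. With the mouse as a replicate block all 4 stayed called, and Tgfb1 (-1.09, adjusted p = 0.0195) and Cx3cl1 (-0.46, adjusted p = 0.0269) were called too.

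In microglia 1 of 9 members was called between the regions of GF mice, Tgfb2 (adjusted p = 0.0012), beside 1.87% of all genes. GF microglia held 24 Tgfb2 UMIs in Hip and 1 in PFC, a ratio of levels of 34.2 (exact 95% counting interval 5.58 to 1410). The excitatory neurons of the same libraries differed in the same direction, and their part was not tested. In astrocytes edgeR called 0 of 10 between regions (3 at an unadjusted p under 0.05, 0 by DESeq2), beside 6.61% of genes. With the replicate block Cx3cl1 was called (-0.64, adjusted p = 0.0406).

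The change between GF and SPF differed between regions for 3 of 10 members in excitatory neurons (beside 52.5% of genes), which were Cx3cl1, Tgfb2 (-0.69, SE 0.21, adjusted p = 0.0113) and Tgfbr1 (-1.18, SE 0.33, adjusted p = 0.00563). For Tgfb2 and Tgfbr1 the difference was not called with the length and GC trend removed or without mouse 31, and that of Tgfb2 also not with library size alone or without mouse 7. With the replicate block Cx3cr1 was called as well (-0.48, adjusted p = 0.0181). The edgeR test called 0 of 9 members in microglia (beside 10.7%), with 4 at an unadjusted p under 0.05. In astrocytes it called 0 of 10 (beside 25.0%), with 3 at an unadjusted p under 0.05, and with the replicate block Cx3cl1 was called (0.76, adjusted p = 0.0448). DESeq2 called 0 in both types.

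The largest difference of any member was that of Tgfbr2, the type II TGF-beta receptor, in oligodendrocytes. In Hip its level was 74.8, 80.6 and 49.7 CPM in SPF mice (139, 124 and 122 UMIs), 0.763, 2.02 and 2.67 CPM in GF mice (1, 3 and 3 UMIs) and 4.98, 3.56 and 4.12 CPM in CGF mice (8, 7 and 6 UMIs). In PFC it was 47.0, 44.1 and 32.6 CPM in SPF mice (11, 14 and 12 UMIs), 3.05, 0 and 2.56 CPM in GF mice (3, 0 and 3 UMIs) and 0, 0 and 4.30 CPM in CGF mice (0, 0 and 1 UMI). The SPF mice stood apart from both other groups in both regions, and the CGF mice lay near the GF mice. Both of those groups came from the same germ-free mice. Origin, early germ-free life and housing cannot be told apart in this pattern, and none was tested.

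**Figure D4:**
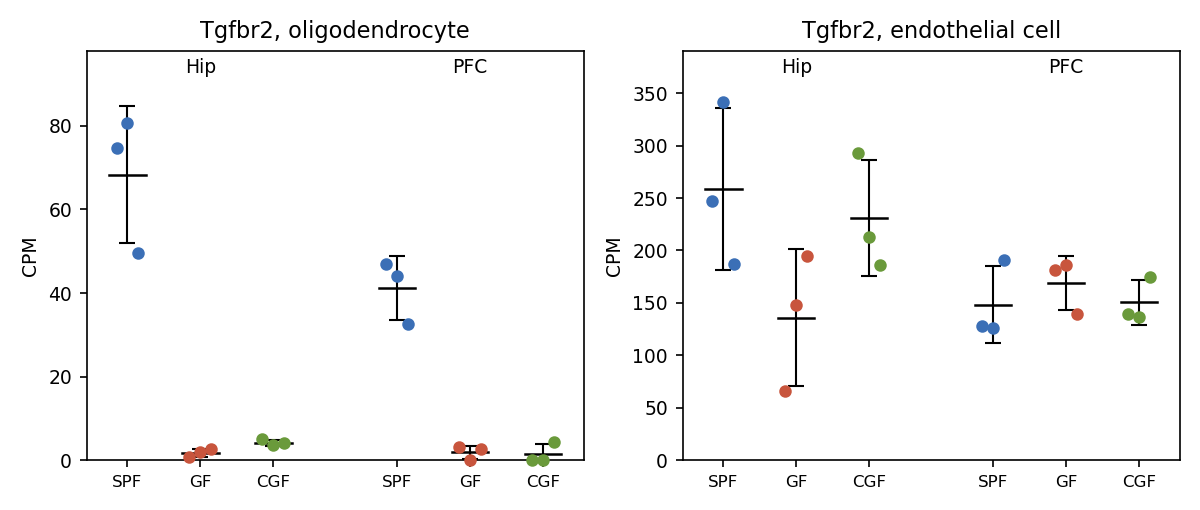
Level of Tgfbr2 in oligodendrocytes and in endothelial cells by mouse, in CPM (points are mice, the line is the mean, bars are the SD, n = 3; blue SPF, red GF, green CGF). In oligodendrocytes the SPF mice have 32.6 to 80.6 CPM and the 12 GF and CGF libraries have 0 to 4.98 CPM.

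The summed SPF level was 36.8 times the GF level in Hip (exact 95% counting interval 17.7 to 92.2, from 385 and 7 UMIs) and 19.4 times in PFC (8.13 to 56.3, from 37 and 6 UMIs). Against CGF it was 15.8 times in Hip (10.2 to 25.7, with 21 UMIs in CGF). These intervals cover counting error only. The fitted GF to SPF log2 fold change was -5.14 in Hip (SE 0.36, adjusted p = 8.88e-07) and -4.11 in PFC (SE 0.56, adjusted p = 1.03e-06), called without each mouse and under every alternative that tested it, although so few counts make its size depend on the fit. In thinned PFC libraries it fell under the filter on low counts and was not tested.

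Between CGF and SPF it was -3.97 in Hip (SE 0.28, adjusted p = 2.18e-06) and -4.86 in PFC (SE 0.86, adjusted p = 0.00519). The latter was lost with DESeq2 and without mouse 17 or 18, and was not tested in thinned libraries or with only the 6 libraries compared. This comparison and that of GF with CGF oligodendrocytes were added after the values of Tgfbr2 had been seen.

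The difference was also present within 1 cluster. In the oligodendrocyte cluster of Hip that SPF and CGF mice share, 325 of 2052 SPF nuclei had a Tgfbr2 UMI (15.8%, 95% Wilson interval 14.3 to 17.5%) and 18 of 2061 CGF nuclei (0.873%, 0.553 to 1.38%). These nuclei are pooled over 3 mice a group, which are the replicates, and the intervals cover counting error only. Thinned to 500 UMIs per nucleus, with no nucleus left out, the shares of Hip oligodendrocytes with a UMI were 2.43 to 4.62% in SPF, 0 to 0.398% in GF and 0 to 0.317% in CGF mice. Unthinned, the shares over all Hip oligodendrocytes were 15.3% in SPF, 0.393% in GF and 0.924% in CGF mice (median depth 2449, 1963 and 2127 UMIs). In Hip astrocytes they were 5.83%, 3.74% and 4.59% in the same order (2921, 2282 and 2674 UMIs), and in OPC 2.08%, 0.629% and 1.12% (3488.5, 2730 and 3430 UMIs), so the GF and CGF oligodendrocytes were at or below the share in OPC. Microglial Tgfbr2 means in Hip were 300 CPM in SPF, 258 CPM in GF and 364 CPM in CGF mice.

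Of 9 members tested in Hip oligodendrocytes 3 were called between GF and SPF, all lower in GF, beside 34.8% of genes, and in PFC 2 of 4, both lower, beside 41.4%. In Hip they were Tgfbr2, Cx3cl1 and Tgfb2 (-0.83, SE 0.25, adjusted p = 0.0181, lost with the length and GC trend removed and without mouse 7 or 32). Between GF and CGF 1 was called in each region, Cx3cl1 (-0.50, adjusted p = 0.0251, in Hip and -0.92, adjusted p = 0.000701, in PFC), beside 34.8% and 40.2%. The call in Hip was lost without mouse 6, 18 or 19. Between CGF and SPF the 1 call in each region was Tgfbr2, beside 0.194% of genes in Hip and 0.236% in PFC.

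Csf1, whose level was highest in these cells, was 55.7, 64.0 and 49.8 CPM in GF, 51.1, 50.0 and 44.8 CPM in SPF and 62.2, 56.9 and 49.5 CPM in CGF mice of Hip, and it was called in none of the tests between groups that held it. Cd200 was likewise called in none of those that held it, with 22.9, 22.7 and 29.0 CPM in GF and 21.3, 20.2 and 23.6 CPM in SPF excitatory neurons of Hip. GF and CGF, and CGF and SPF, were compared in microglia, excitatory neurons, astrocytes and oligodendrocytes alone. In OPC edgeR called 0 of 5 members in Hip between GF and SPF (beside 20.4%; 1 at an unadjusted p under 0.05 and 0 by DESeq2), and 1 of 3 in PFC, Cx3cl1 (beside 35.0%).

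**Figure D5:**
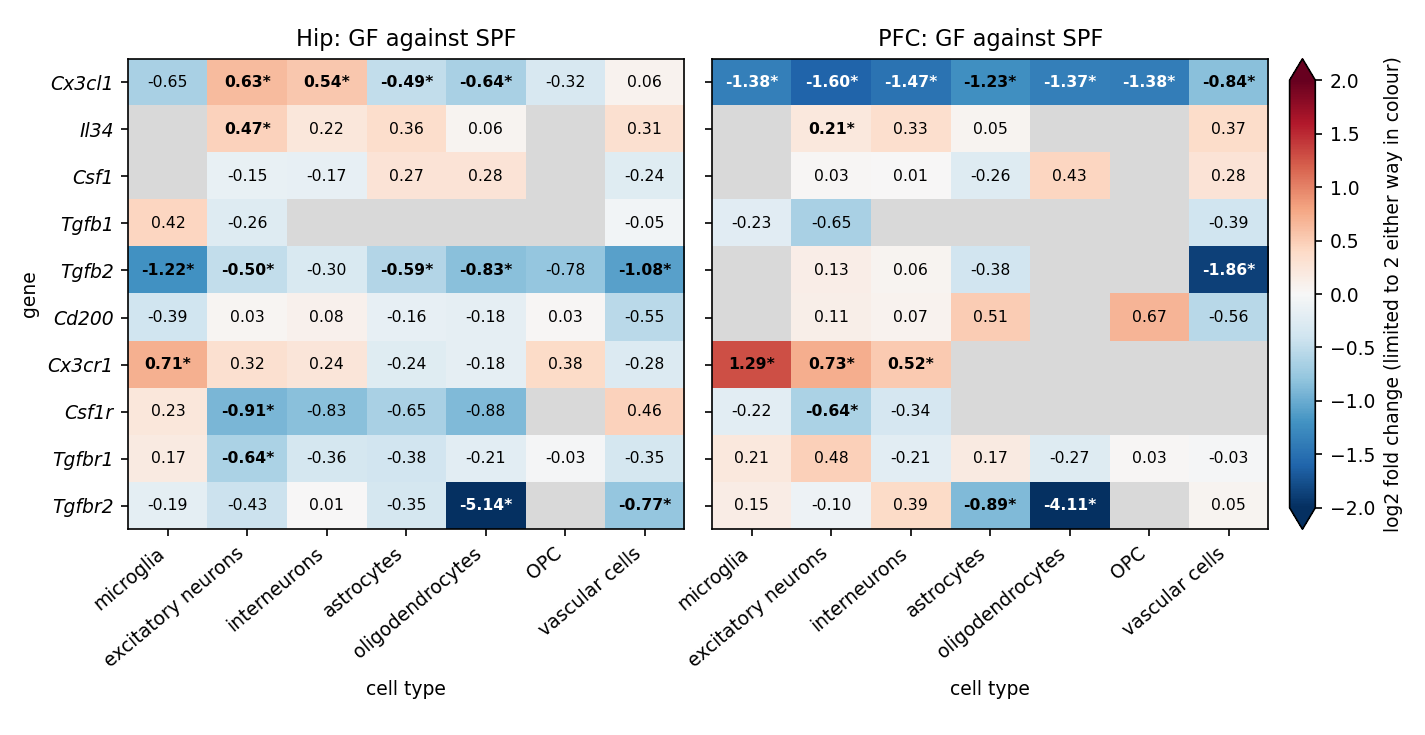
Log2 fold change of each member between GF and SPF mice in each cell type and region (colour limited to -2 and 2, asterisk for adjusted p under 0.05, grey for genes not tested). Cx3cl1 is higher in GF neurons of Hip and lower in all tested types of PFC, and Cx3cr1 is higher in GF microglia of both regions.

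Genes that act with the members were counted in microglia from 4 lists. Of 12 genes that depend on TGF-beta in microglia, all were tested, and 6 rose in GF against SPF in Hip and 8 in PFC, with 0 lower in either region, beside 26.8% and 39.8% of all genes. Against CGF, 5 were called in Hip (4 higher and 1 lower, median 0.21) and 4 in PFC (all higher, median 0.53), beside 26.5% and 36.3%. The median log2 fold change of the list was 0.70 in Hip and 0.66 in PFC, against -0.0037 and 0.0082 over all genes tested. Genes of this list, such as P2ry12, Tmem119 and Siglech, are also among the markers that gated the microglia. The summed microglial marker list rose too, from 4174 to 5347 CPM in SPF to 6505 to 6747 CPM in GF mice of Hip. In PFC it rose from 4029 to 4646 CPM to 6675 to 8031 CPM. Its part in the rise of the TGF-beta list and of genes in the other lists was not tested. The genes with the largest changes in Hip were Olfml3 (1.65, SE 0.28, adjusted p = 0.000137), P2ry13 (1.38), Tmem119 (1.25) and Gpr34 (1.04), and in PFC they were Slc2a5 (2.21, SE 0.50, adjusted p = 0.000406), the fructose transporter of microglia, Mertk (1.33), a receptor for engulfment, Olfml3 (1.14) and Gpr34 (1.05). Not called in the other region were Tmem119 (-0.10, adjusted p = 0.794) and P2ry13 (0.24, adjusted p = 0.699) in PFC. The same held for Mertk (0.18, adjusted p = 0.343) and Slc2a5 (0.76, adjusted p = 0.249) in Hip.

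Of 16 genes that activate TGF-beta or carry its signal, 1 of 11 tested was called in Hip and 3 of 10 in PFC between GF and SPF, both shares under the 26.8% and 39.8% of all genes. Against CGF, 3 of 11 were called in Hip, all lower in GF (beside 26.5% of all genes), and 3 of 10 in PFC, 1 higher and 2 lower (beside 36.3%). Between CGF and SPF, 1 of 10 was called in PFC, higher in CGF, beside 0.0734% of all genes, and 0 of 11 in Hip (beside 0.115%). No other list held a call between CGF and SPF. Nrros, which holds latent TGF-beta on the surface of microglia, rose in Hip (1.41, SE 0.25, adjusted p = 0.000184) and in PFC (0.61, adjusted p = 0.0493). The integrin subunit Itgav rose in PFC (1.22, adjusted p = 0.000505), and Ski, a repressor of SMAD proteins, fell by 1.02 there on the log2 scale (adjusted p = 2.63e-05).

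Of 11 genes of the CSF1R pathway and of myeloid transcription, 3 of 8 tested were called in Hip (beside 26.8% of all genes) and 2 of 7 in PFC (beside 39.8%). Against CGF, 3 of 8 were called in Hip, 2 higher and 1 lower (beside 26.5%), and 1 of 7 in PFC, higher (beside 36.3%). In Hip Tyrobp (1.05, adjusted p = 0.00998), an adaptor of myeloid receptors, rose, and Ptprz1, a phosphatase of astrocytes and OPC that binds IL-34, fell by 1.59 (adjusted p = 3.93e-05). The astrocyte marker list, lower in GF than in SPF microglial sums of Hip as given for Tgfb2, moved in the same direction as Ptprz1, and its part was not tested. In PFC the calls were Spi1 (1.03, adjusted p = 0.000913), which encodes PU.1, and Cbl (0.61, adjusted p = 0.0314), a ligase that marks CSF1R for degradation.

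Of 9 genes that shed fractalkine or act with CD200 or CD47, 2 of 8 tested were called in Hip (beside 26.8% of all genes) and 5 of 7 in PFC (beside 39.8%). Against CGF, 2 of 8 were called in Hip, 1 higher and 1 lower (beside 26.5%), and 4 of 7 in PFC, all higher (beside 36.3%). In PFC Ctss (0.91, adjusted p = 8.47e-05), Cd47 (0.88, adjusted p = 0.00692), Adam10 (0.86, adjusted p = 0.00175) and Adam17 (0.78, adjusted p = 0.0181) rose, where ADAM10, ADAM17 and cathepsin S are proteases that cut fractalkine free. The fifth, Gnai2, a G protein subunit named here after its value was seen, fell by 0.67 on the log2 scale (adjusted p = 0.0188). In Hip Ctss rose as well (0.88, adjusted p = 0.000218), and Sirpa, the receptor of CD47, fell by 0.54 (adjusted p = 0.00913). Ctss is also one of the markers that gated the microglia.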

How the data were processed

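The 10 genes, the gene lists and the tests were chosen with earlier results of these data known. The authors sequenced 18 single-nucleus libraries and deposited whole-number UMI counts per gene and nucleus, as Cell Ranger (matrix header 3.1.0, mm10) wrote them, with no normalization. Base calls came from CASAVA 1.8, per the labels, and whether intronic reads were counted is not given in the sources used here. From these counts, nuclei were kept that had at least 200 genes and at most 10% of their UMIs from mitochondrial genes. Each region was clustered (2000 variable genes, 30 components, 20 neighbours, Leiden resolution 2), and clusters were named from marker lists without any of the 10 genes. Likely doublets were scored, and they stayed in except in an alternative.

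For each mouse, the UMIs of a cell type were added up, and the 9 mice of a region were fitted together with edgeR (filterByExpr, TMM, glmQLFit and glmQLFTest, Benjamini-Hochberg adjustment over all genes tested, threshold 0.05). The SE is the absolute log2 fold change over the square root of F. Region was tested in a fit of all 18 libraries. The labels pair the regions by mouse: deviations from the group means correlated between both libraries of a mouse by 0.011 to 0.167 in astrocytes, 0.151 to 0.324 in excitatory neurons and 0.000162 to 0.128 in microglia, and with other mice of the group by at most 0.0599, -0.0548 and 0.0696. A share of nuclei without a UMI has an upper limit of 3 counts.

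The genes named are all 10 members, up to 4 called genes per list and region with the largest change, and the 2 genes most like each member over cell types, among those reaching 20 CPM. Some genes under this rule are not reported here. Alternatives were DESeq2, its size factors, no filter on low counts, thinned libraries, doublets removed, a stricter gate (nuclei with 2 or more of their own markers and a larger share of that list than of any other), only the 6 libraries compared, correction for gene length and GC, the replicate block, and each mouse left out. Library size alone as the scaling was chosen after seeing the data. Tests were run on simulated counts with few changed genes, as many raised as lowered. That setting does not cover changes as wide as those found here, where the scaling matters. Tools were Python 3.11.15 (leidenalg 0.10.2, igraph 0.11.9, scikit-learn 1.9.0, pandas 2.3.3, scipy 1.17.1, numpy 2.4.6) and R 4.3.3 (edgeR 4.0.16, DESeq2 1.42.0).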

Additional observations from a re-analysis of the deposited data

Results flagged for a closer look

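The change between GF and SPF excitatory neurons differed between the regions for 3 members, by the interaction test over all 18 libraries (edgeR with Benjamini-Hochberg adjustment). The Hip change minus the PFC change was 2.17 on the log2 scale for Cx3cl1 (adjusted p = 3.19e-06), which was higher in all 3 GF mice of Hip and lower in all 3 of PFC than in any SPF mouse. It was -0.69 for Tgfb2 (adjusted p = 0.0113), whose level in PFC neurons was only 4.71 to 6.46 CPM. It was -1.18 for Tgfbr1 (adjusted p = 0.00563), whose GF and SPF values overlapped in both regions. Both of the latter calls were lost with the length and GC trend removed (Tgfb2 -0.34, adjusted p = 0.215, and Tgfbr1 -0.73, adjusted p = 0.0663) and without mouse 31 (-0.55, adjusted p = 0.072, and -0.79, adjusted p = 0.0541). That of Tgfb2 was also lost with library size alone (-0.32, adjusted p = 0.213) and without mouse 7 (-0.53, adjusted p = 0.0725), while that of Cx3cl1 remained in every alternative and without each mouse. Depth per excitatory neuron was lower in GF than in SPF mice in Hip and higher in PFC. The mitochondrial share was higher in GF mice in Hip and lower in PFC, and the part of both was not tested. The explanations were not tested.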

How the results depend on the processing

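Of 56 called member values, 32 were called under every alternative that tested them and 29 of these also without each mouse, and 0 reversed. DESeq2 took the call from 7, removing the length and GC trend from 16, thinning from 7, library size alone from 7, the stricter gate from 6, no filter from 6, removing doublets from 3 and the size factors of DESeq2 from 0. The cause was not tested. Counts of called members (GF against SPF where no other groups are named) are given where they moved by over 1.5 times, and smaller moves, losses of single calls included, are not listed. The added oligodendrocyte comparisons with CGF mice are not in these lists. Of their calls, that of Tgfbr2 between CGF and SPF in PFC was lost with DESeq2 and without mouse 17 or 18. That of Cx3cl1 between GF and CGF in Hip was lost without mouse 6, 18 or 19.

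With DESeq2 they were 1 in Hip microglia (from 2), 1 in Hip microglia between GF and CGF (from 3), 1 in excitatory neurons between CGF and SPF in each region (from 0), 1 in astrocytes of each region (from 2) and 1 in PFC interneurons (from 2). With the length and GC trend removed they were 1 in Hip microglia between GF and CGF, 3 in Hip excitatory neurons (from 5) and 1 between GF and CGF (from 3), 1 in astrocytes of each region, 1 (from 0) in Hip and 0 (from 1) in PFC astrocytes between GF and CGF, 4 in PFC interneurons, and 1 (from 3) for the difference between regions in excitatory neurons. With the stricter gate they were 1 in Hip microglia, OPC and vascular cells, 1 in PFC interneurons, astrocytes and vascular cells, and 1 (from 0) for the difference between regions in astrocytes. With no filter they were 1 in Hip microglia between GF and CGF, Hip OPC and PFC interneurons, 2 in PFC astrocytes between GF and CGF, and 1 (from 0) for astrocytes in both tests of region. Thinned, they were 0 in Hip microglia between GF and CGF, 2 in Hip interneurons, 1 in Hip OPC, PFC astrocytes and PFC oligodendrocytes, and 2 (from 4) between regions in excitatory neurons. Without doublets they were 2 in Hip interneurons, 1 in Hip vascular cells and 1 in PFC interneurons. With only the 6 libraries they were 1 in Hip vascular cells and 2 in PFC astrocytes between GF and CGF. With library size alone, chosen after seeing the data, they were 1 in PFC interneurons and 1 (from 0) for the difference between regions in microglia. With the replicate block, they were 1 for astrocytes in both tests of region (from 0), 6 between regions (from 4) and 4 for the difference between regions (from 3) in excitatory neurons, and the paired fit took no call away.

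Leaving out each mouse gave 1 to 3 in Hip microglia, 0 to 4 between GF and CGF there, 3 to 5 in Hip excitatory neurons, 1 to 2 in Hip interneurons and astrocytes, 0 to 1 in Hip astrocytes between GF and CGF and in Hip OPC, and 1 to 3 in Hip vascular cells. In PFC it gave 2 to 4 in excitatory neurons (0 to 1 between CGF and SPF), 1 to 2 in interneurons and in astrocytes, and 1 to 2 in astrocytes between GF and CGF. For excitatory neurons it gave 2 to 5 between regions and 1 to 4 for the difference, and for astrocytes 0 to 1 in each.

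The mean log2 TMM factor of GF minus that of SPF mice was 0.163 in Hip and -0.148 in PFC excitatory neurons, 0.144 in Hip interneurons and 0.149 in PFC microglia. A higher factor in GF lowers its fold change against SPF. In Hip excitatory neurons the median log2 fold change over all genes was 0.201 with library size alone and 0.0391 with TMM. It was -0.137 and 0.00971 in PFC excitatory neurons, and 0.169 and 0.0082 in PFC microglia. With library size alone, the share of calls over all genes that were higher in GF than in SPF moved from 54.0 to 72.7% in Hip excitatory neurons, 55.0 to 75.1% in Hip interneurons, 56.7 to 67.8% in Hip OPC, 68.9 to 58.0% in Hip vascular cells and 47.6 to 59.8% in PFC microglia. Against CGF it moved from 53.3 to 75.3% in Hip and 51.0 to 39.9% in PFC excitatory neurons and from 48.0 to 61.9% in PFC microglia, and from CGF to SPF in Hip excitatory neurons from 58.1 to 46.9%. The direction of each called member was the same under both scalings.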
